A study of Mus musculus with 5 samples.

Results

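The 10 genes described here are the radial glia-like stem cell genes *Hopx*, *Fabp7*, *Ednrb*, *Nes*, *Sox2*, *Sox9*, *Hes5*, *Id4*, *Notch1* and *Pax6*, whose transcripts were quantified by RNA-seq of hippocampal tissue from mice aged 3 months. They were matched by symbol among the 23361 gene symbols listed for each library, all 10 were found, and all 10 were among the 12740 genes that averaged 1 FPKM or more and were tested. The control mice carried 2 floxed *Hdac1* alleles without Cre (*Hdac1* f/f, n = 2), and the *Hdac1* cKO mice carried the same alleles with the *Nestin-Cre* transgene (*Hdac1* f/f, *Nestin-Cre*, n = 3). *Hdac1* encodes a class I histone deacetylase, and *Nestin-Cre* removes it from neurons and astrocytes, while microglia keep it. Because the *Nestin-Cre* driver is active in embryonic neural progenitors, adult radial glia descend from cells in which it was active, and because the controls carried no Cre, the transgene and the deletion cannot be told apart. The genes were chosen from a group whose levels had been seen to differ between these same libraries, so each genotype difference below is a description of these 5 libraries and not a test.

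Radial glia-like stem cells of the adult dentate gyrus rest below the granule cell layer and give rise to granule neurons through dividing intermediate progenitors. They keep a glial character, with intermediate filaments, a brain fatty acid binding protein and glutamate transporters, and their quiescence is held by Notch and BMP signalling through HES and ID proteins. Most of these genes are also transcribed in mature astrocytes, which are far more numerous in whole hippocampus. In bulk tissue, a change in the number of such cells and a change in RNA per cell cannot be told apart.

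*Hdac1* stood at 8.95 and 13.1 FPKM in control tissue against 1.95, 3.12 and 3.37 FPKM in cKO tissue, 25.5% of the control mean, without overlap. FPKM is the number of fragments per kilobase of transcript, scaled by the mapped fragments of the library. The libraries held 565363 to 636705 FPKM in total with 12680 to 12745 genes at 1 FPKM or more. The steps between low values put their depth at about 5120000 to 6750000 fragments, each estimate resting on a window of 30 to 77 genes. Ratios between libraries among weakly expressed genes placed the libraries in 2 sets. Set 1 held control replicate 1 and cKO replicate 1, and set 2 held control replicate 2 with cKO replicates 2 and 3. Within a set 24.55% to 28.39% of weakly expressed genes shared a step, against 3.71% to 4.64% across sets, so each genotype difference is also given within each set.

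The sequences directly upstream of the annotated starts are shown for the genes whose levels separated the genotypes most. Those of *Hes5* and *Sox2*, whose levels differed most between the library sets, are also shown. They are the 250 bases before the RefSeq start (table of assembly GRCm38.p6), each of which matched NCBIM37, the build of the deposited values, exactly and at 1 place. Read 5′ to 3′ on the strand of the gene, the capitals mark the core letters bound by RBPJ, the DNA-binding partner of cleaved Notch (TGGGAA on either strand). The windows were chr4:154334782-154335031 on the plus strand for *Hes5*, chr10:57504479-57504728 on the plus strand for *Fabp7*, chr5:77544149-77544398 and chr5:77524293-77524542 on the minus strand for promoters 1 and 2 of *Hopx*, chr14:104242919-104243168 on the minus strand for *Ednrb*, inside the longer gene model of GENCODE, and chr3:34548667-34548916 on the plus strand for *Sox2*.
Hes5: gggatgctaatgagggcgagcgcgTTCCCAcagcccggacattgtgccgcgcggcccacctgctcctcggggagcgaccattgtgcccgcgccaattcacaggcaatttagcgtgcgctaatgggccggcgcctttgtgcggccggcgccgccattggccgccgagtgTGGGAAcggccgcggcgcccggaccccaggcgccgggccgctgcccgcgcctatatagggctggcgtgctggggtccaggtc
Fabp7: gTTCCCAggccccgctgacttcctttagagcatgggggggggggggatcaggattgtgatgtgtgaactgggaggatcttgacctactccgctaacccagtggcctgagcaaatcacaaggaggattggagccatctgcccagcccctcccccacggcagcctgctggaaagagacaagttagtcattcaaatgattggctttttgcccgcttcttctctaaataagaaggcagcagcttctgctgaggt
Hopx promoter 1: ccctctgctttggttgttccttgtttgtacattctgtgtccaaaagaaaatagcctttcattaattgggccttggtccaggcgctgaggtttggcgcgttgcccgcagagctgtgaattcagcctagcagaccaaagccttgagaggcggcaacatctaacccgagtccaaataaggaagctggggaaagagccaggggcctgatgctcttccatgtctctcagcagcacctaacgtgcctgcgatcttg
Hopx promoter 2: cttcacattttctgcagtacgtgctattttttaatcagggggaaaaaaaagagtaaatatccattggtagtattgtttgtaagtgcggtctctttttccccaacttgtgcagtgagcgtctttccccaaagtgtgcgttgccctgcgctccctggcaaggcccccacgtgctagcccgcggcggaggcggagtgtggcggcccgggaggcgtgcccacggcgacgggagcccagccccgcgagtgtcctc
Ednrb: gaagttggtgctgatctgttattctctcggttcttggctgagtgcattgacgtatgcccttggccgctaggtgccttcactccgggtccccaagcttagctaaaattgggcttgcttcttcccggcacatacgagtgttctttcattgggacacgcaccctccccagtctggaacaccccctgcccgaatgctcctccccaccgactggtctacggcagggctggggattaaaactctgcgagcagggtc
Sox2: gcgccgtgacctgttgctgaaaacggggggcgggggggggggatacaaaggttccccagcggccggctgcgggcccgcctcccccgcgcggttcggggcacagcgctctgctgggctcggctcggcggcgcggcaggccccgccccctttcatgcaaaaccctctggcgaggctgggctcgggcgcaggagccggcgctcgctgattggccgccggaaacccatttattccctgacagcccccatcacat

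*Hes5* held 2 RBPJ cores, which began at positions -226 and -82 counted back from the start, *Fabp7* held 1 core that began at position -249, and the windows of *Hopx*, *Ednrb* and *Sox2* held none. Of the 11 promoters of 9 members in the table, 3 held a core, the third being *Id4*, against 21.6% of all 32851 promoters, and 2.8% of all promoters held 2 or more as *Hes5* did. The N box CACNAG, to which HES proteins bind, lay in 5 of the 11 member promoters and in 36.7% of all promoters, on either strand. The GC box GGGCGG lay in 4 of the 11 and in 32.7% of all, and was present in *Sox2* but not in the windows shown for *Hopx*, *Fabp7*, *Ednrb* or *Hes5*. These are matches of letters only, and no binding was measured here.

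*Hopx* encodes a homeodomain-only protein that does not itself bind DNA and that marks quiescent stem cells in several tissues, the dentate gyrus included. The gene (ENSMUSG00000059325.7) lies at chr5:77515468-77544186 on the minus strand. Its level was 131 and 112 FPKM in control tissue (replicates 1 and 2) against 224, 166 and 181 FPKM in cKO tissue (replicates 1, 2 and 3, the order kept below). Every cKO library was above both controls, and within the cKO group the library of set 1 was highest. The means were 121 ± 12.9 FPKM (SD, n = 2) and 190 ± 30.0 FPKM (SD, n = 3), a ratio of 1.57, and the difference on the log2(FPKM + 1) scale was 0.64 with an SE of 0.14. The log2 difference was 0.77 within set 1 and 0.62 within set 2.

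*Fabp7* encodes the brain lipid binding protein, a carrier of long-chain fatty acids that is the classical radial glia marker. The gene (ENSMUSG00000019874.5) lies at chr10:57504687-57508256 on the plus strand. Its level was 84.3 and 75.0 FPKM in control tissue against 114, 146 and 173 FPKM in cKO tissue. The groups did not overlap, and the cKO libraries were more widely spread than the controls, with the set 1 library lowest. The means were 79.6 ± 6.52 FPKM (SD, n = 2) and 144 ± 29.5 FPKM (SD, n = 3), a ratio of 1.81, and the log2 difference of 0.83 (SE 0.17) was the largest among the 10 genes. Within the sets the log2 difference was 0.43 in set 1 and 1.07 in set 2, with 1 control library behind each.

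*Ednrb* encodes the endothelin B receptor, a G protein-coupled receptor of astrocytes and radial glia. The gene (ENSMUSG00000022122.7) lies at chr14:104213842-104243390 on the minus strand. Its level was 25.3 and 22.7 FPKM in control tissue against 34.2, 33.6 and 33.2 FPKM in cKO tissue. The cKO values were nearly the same as each other and lay above both controls. The means were 24.0 ± 1.83 FPKM (SD, n = 2) and 33.7 ± 0.526 FPKM (SD, n = 3), a ratio of 1.40, with a log2 difference of 0.47 (SE 0.10) over all libraries, 0.42 within set 1 and 0.54 within set 2.

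**Figure D1:**
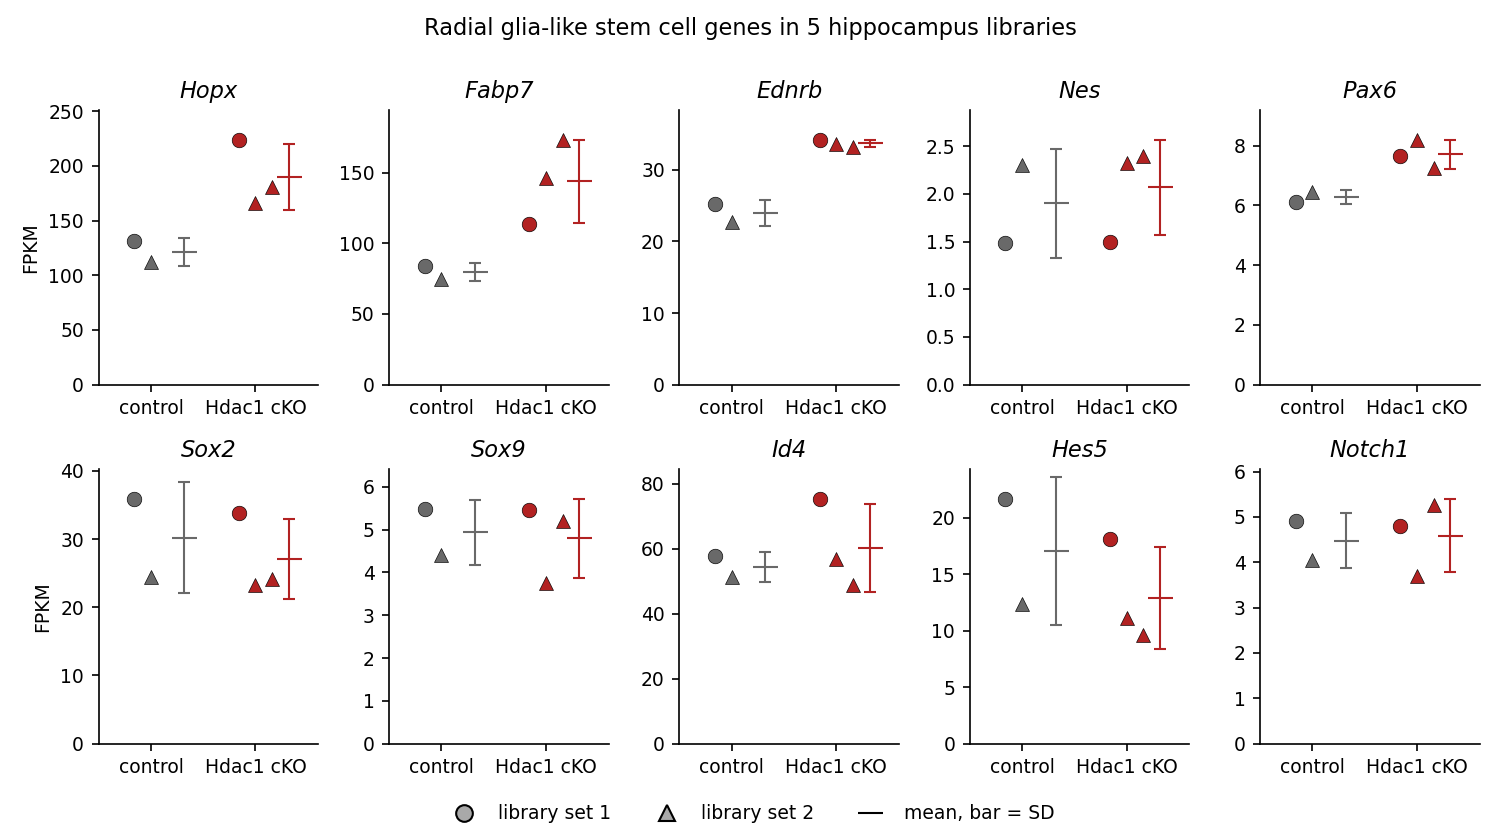
FPKM of the 10 genes (vertical axes, from 0) in each library of the control and *Hdac1* cKO groups, with circles for library set 1, triangles for set 2, and a dash with a bar for the mean and SD. *Hopx*, *Fabp7*, *Ednrb* and *Pax6* were higher in all 3 cKO libraries than in both controls. In *Hopx*, *Ednrb*, *Sox2*, *Sox9*, *Hes5* and *Id4* the circles lie above the triangles in both groups.

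*Pax6*, a paired-box transcription factor of radial glia that also persists in some neurons and astrocytes, was the other gene with no overlap. The gene (ENSMUSG00000027168.12) lies at chr2:105509053-105543317 on the plus strand. It stood at 6.12 and 6.46 FPKM in control tissue against 7.67, 8.20 and 7.25 FPKM in cKO tissue. This log2 difference of 0.25 (SE 0.12) was the smallest of the 4, with 0.28 within set 1 and 0.22 within set 2. Of its 19833 exonic bases, 5542 are shared with *Elp4* on the opposite strand, and whether reads were assigned by strand was not stated.

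*Nes* encodes nestin, the intermediate filament protein whose regulatory sequence drives the Cre transgene. The gene (ENSMUSG00000004891.10; chr3:87775000-87784373, plus strand) was the lowest of the 10. Its level was 1.49 and 2.30 FPKM in control tissue against 1.5, 2.32 and 2.40 FPKM in cKO tissue. The genotypes overlapped and the order followed the library sets, with the set 1 libraries at 1.49 and 1.5 FPKM. The log2 difference by genotype was 0.09 (SE 0.20), with 0.0049 within set 1 and 0.03 within set 2. Its fragments numbered about 61 to 93 per library.

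The SOX transcription factors that maintain the stem cell state did not separate the genotypes. *Sox2* (ENSMUSG00000074637.3; chr3:34548927-34551383, plus strand), required for the self-renewal of neural stem cells, stood at 35.9 and 24.4 FPKM in control tissue against 33.8, 23.2 and 24.1 FPKM in cKO tissue. The 2 set 1 libraries were high and the 3 set 2 libraries low, whatever the genotype. Its log2 genotype difference was -0.15 (SE 0.20), and within the sets it came to -0.08 and -0.04. *Sox9* (ENSMUSG00000000567.4; chr11:112643538-112649074, plus strand), which turns neural progenitors towards glia, stood at 5.47 and 4.40 FPKM in control tissue against 5.46, 3.75 and 5.20 FPKM in cKO tissue. The groups overlapped, with a log2 difference of -0.04 (SE 0.17), and with -0.0031 within set 1 and 0.01 within set 2.

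The genes of the Notch and BMP axis overlapped between the genotypes as well. *Notch1* (ENSMUSG00000026923.8; chr2:26313423-26372183, minus strand), the receptor, stood at 4.90 and 4.05 FPKM in control tissue against 4.79, 3.69 and 5.27 FPKM in cKO tissue. Its log2 difference was 0.02 (SE 0.16), with -0.03 within set 1 and 0.10 within set 2, so the groups overlapped with no common direction. *Hes5* (ENSMUSG00000048001.7; chr4:154335032-154336480, plus strand), the repressor that Notch signalling induces in neural stem cells, stood at 21.7 and 12.4 FPKM in control tissue against 18.1, 11.1 and 9.61 FPKM in cKO tissue. Each cKO library was below the control of its own set, but cKO replicate 1 was above control replicate 2. The log2 difference was -0.37 (SE 0.28) over all libraries, -0.25 within set 1 and -0.24 within set 2. *Id4* (ENSMUSG00000021379.1; chr13:48356796-48359405, plus strand), an inhibitor of basic helix-loop-helix factors that BMP signalling induces and that keeps stem cells quiescent, stood at 57.8 and 51.2 FPKM in control tissue against 75.4, 56.8 and 48.9 FPKM in cKO tissue. The groups overlapped, since cKO replicate 3 was the lowest of the 5 libraries and cKO replicate 1 the highest, and the log2 difference was 0.12 (SE 0.17), with 0.38 within set 1 and 0.04 within set 2.

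Part of the exonic sequence is shared with a gene on the opposite strand for 433 of 1363 bases of *Hes5*, 410 of 2099 of *Hopx*, 171 of 1660 of *Id4* and 1389 of 14232 of *Notch1*. No stretch of at least 200 bases with 95% identity to a member's longest coding transcript was found elsewhere in the genome.

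Across the 10 genes, the median log2 genotype difference was 0.11, against 0.01 over all tested genes, with 7 genes higher and 3 lower in the cKO mean. After rescaling to a common total, 6 were higher and 4 lower. The counts that follow use the contrast from which the genes were chosen, and nothing is read from them. At an unadjusted p under 0.05 in limma, 3 members were higher in the cKO libraries (*Hopx*, *Fabp7* and *Ednrb*), where 2.37% of all tested genes were, and 0 were lower, where 1.99% of all were (4.36% in both directions). A fold change of at least 1.5 together with an unadjusted p under 0.05, the threshold of the study, was met upwards by 2 members (*Hopx* and *Fabp7*) and by 0.400% of all genes. The libraries did not overlap between genotypes, with the cKO group higher, for 4 members and for 11.0% of all genes. At an adjusted p under 0.05 over all tested genes there were 0 members, and 0.00785% of all genes. The adjusted p in limma was 0.955 for each of *Hopx*, *Fabp7*, *Ednrb*, *Pax6* and *Hes5*, and 0.974 to 0.989 for the other 5. With the library set as a second term, 3 members were higher at an unadjusted p under 0.05, where 5.32% of all tested genes were, and 1 (*Hes5*) was lower, where 4.02% were (9.34% in both directions). In the same model 1 member (*Hopx*) was at an adjusted p under 0.05, where 0.0392% of all genes were. In that model the log2 difference of *Hopx* was 0.69 with an adjusted p of 0.0457, that of *Ednrb* was 0.49 with an adjusted p of 0.204, and that of *Fabp7* was 0.80 with an adjusted p of 0.32.

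**Figure D2:**
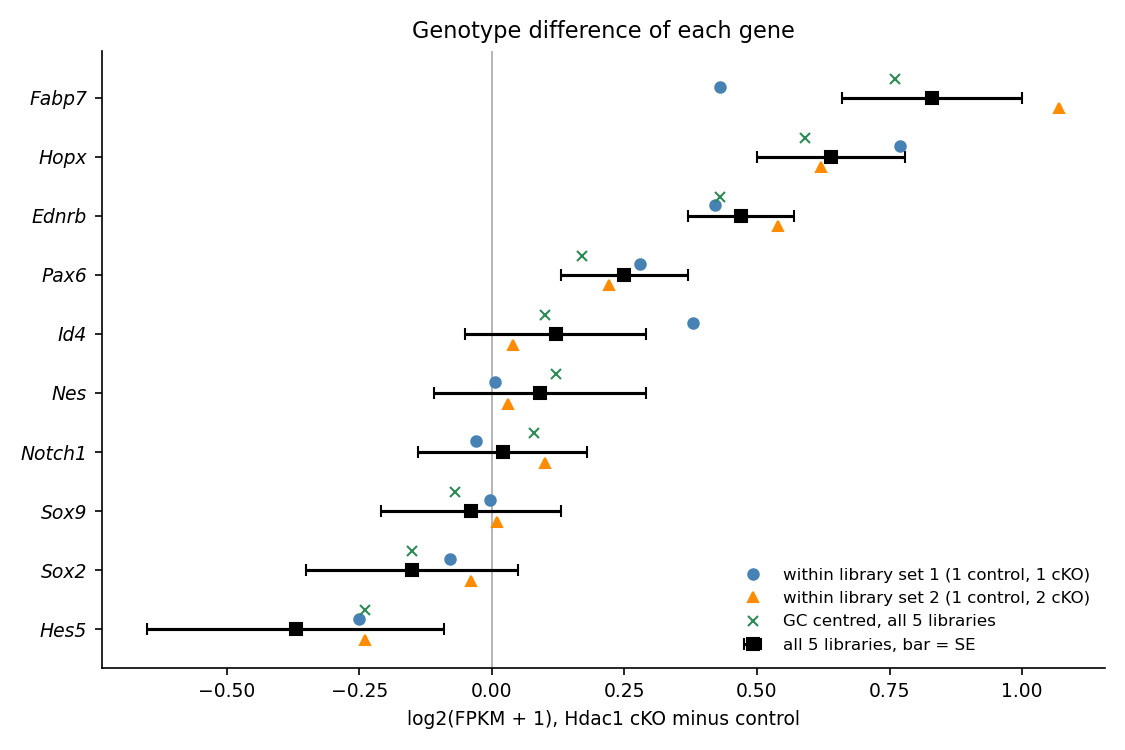
Difference in log2(FPKM + 1), *Hdac1* cKO minus control (horizontal axis), for each of the 10 genes, with squares and SE bars for all 5 libraries, circles and triangles for the values within library sets 1 and 2, and crosses for the GC-centred values. *Fabp7*, *Hopx*, *Ednrb* and *Pax6* lie above 0 in every version, and the markers of *Nes*, *Notch1*, *Sox9* and *Sox2* lie close to 0.

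FPKM is scaled by transcript length, so levels can be set side by side between genes. Over the 5 libraries the mean was 163 FPKM for *Hopx*, 119 for *Fabp7*, 58.0 for *Id4*, 29.8 for *Ednrb*, 28.3 for *Sox2*, 14.6 for *Hes5*, 7.14 for *Pax6*, 4.85 for *Sox9*, 4.54 for *Notch1* and 2.0 for *Nes*. *Hopx* was thus above 96.4% of the tested genes and *Nes* above 9.51% of them. The order of the neighbours *Ednrb* and *Sox2* differed by genotype, with *Sox2* higher in both controls and *Ednrb* in all 3 cKO libraries. *Sox9* and *Notch1* did not differ beyond their spread, *Sox9* being higher in 4 of 5 libraries. *Hopx* was above *Fabp7* in 5 of 5 libraries although their ranges, 112 to 224 and 75.0 to 173 FPKM, overlapped. The ratio of the highest to the lowest library was largest for *Fabp7* (2.30) and *Hes5* (2.26) and smallest for *Pax6* (1.34). Behind these values stood about 1366 to 2788 fragments per library for *Hopx*, 597 to 922 for *Ednrb*, 435 to 963 for *Fabp7* and 72 to 185 for *Hes5*.

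The difference between the library sets was not used to choose the genes, and it was fitted with genotype in the same limma model. The sets were found in these same values and this comparison was added after they were seen, so its adjusted p-values are not those of a planned test. *Hes5* was lower in set 2 by 0.75 on the log2 scale (SE 0.09, adjusted p = 0.0175), with means of 19.9 FPKM in the 2 libraries of set 1 and 11.0 FPKM in the 3 of set 2. *Sox2* was lower in set 2 by 0.51 (SE 0.07, adjusted p = 0.0220), with means of 34.9 and 23.9 FPKM. For both genes the sets did not overlap, which also held for *Id4*, *Sox9* and *Nes*, and the share over all tested genes was not counted. The genotype difference in the same model was -0.25 for *Hes5* and -0.06 for *Sox2*. These 2 members passed an adjusted p under 0.05, as did 3.09% of all tested genes. *Hopx* had a set difference of -0.30 (adjusted p = 0.065), *Id4* of -0.36 (adjusted p = 0.0942), *Nes* of 0.42 (adjusted p = 0.141), *Fabp7* of 0.20 (adjusted p = 0.442) and *Ednrb* of -0.08 (adjusted p = 0.537). Set 1 holds 1 library of each genotype, and the direction for *Sox2* and *Hes5* was the same under all 13 alternative settings, but the call was lost under 5 of them for *Sox2* and under 4 for *Hes5*. Without control replicate 1, control replicate 2 or cKO replicate 1 the adjusted p of *Sox2* was 0.101, 0.0944 and 0.165, and without cKO replicate 1 that of *Hes5* was 0.0755.

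**Figure D3:**
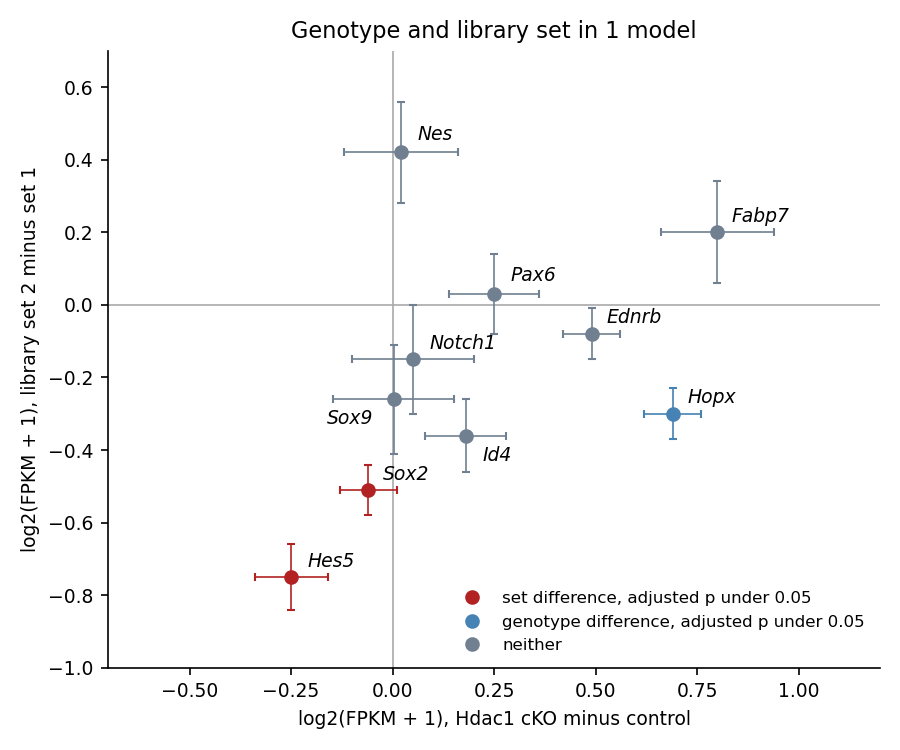
Genotype difference (horizontal axis) against library set difference (vertical axis), both on the log2(FPKM + 1) scale and from 1 limma model with both terms, with SE bars for each of the 10 genes. *Hopx*, *Fabp7* and *Ednrb* lie to the right with set differences of -0.30, 0.20 and -0.08, and *Hes5* and *Sox2* lie lowest, at set differences of -0.75 and -0.51.

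Transcript base composition moved with both differences. Over the 11760 tested genes with a coding transcript in the annotation (92.3%), the GC content of the longest one correlated across genes with the genotype difference (r = -0.33) and with the set difference (r = -0.38). Genes are not independent replicates, and these values are a description. The genotype difference here is from the fit without the library set. The sets hold unequal shares of the genotypes, so the correlations are not separate observations. The median genotype difference ran from 0.09 in the lowest of 10 equal bins of GC content to -0.11 in the highest. *Pax6* (41.2% GC), *Fabp7* (42.6%), *Ednrb* (43.5%) and *Hopx* (46.9%), the 4 members that were higher in every cKO library, had the lowest GC content of the 10, and *Hes5* (62.1%) had the highest. After each library was centred on the median of genes of like GC content, the log2 genotype differences were 0.59 for *Hopx*, 0.76 for *Fabp7*, 0.43 for *Ednrb*, 0.17 for *Pax6* and -0.24 for *Hes5*, so the first 3 were nearly as large as before. The set difference of *Sox2* was -0.58 after this centring (adjusted p = 0.015), and that of *Hes5* was -0.47 and no longer past the threshold (adjusted p = 0.0594). That of *Hopx* was past it at -0.41 (adjusted p = 0.0347), where 1.92% of the genes with a GC value were. That of *Id4* was -0.46 and not past it (adjusted p = 0.0517 in limma).

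**Figure D4:**
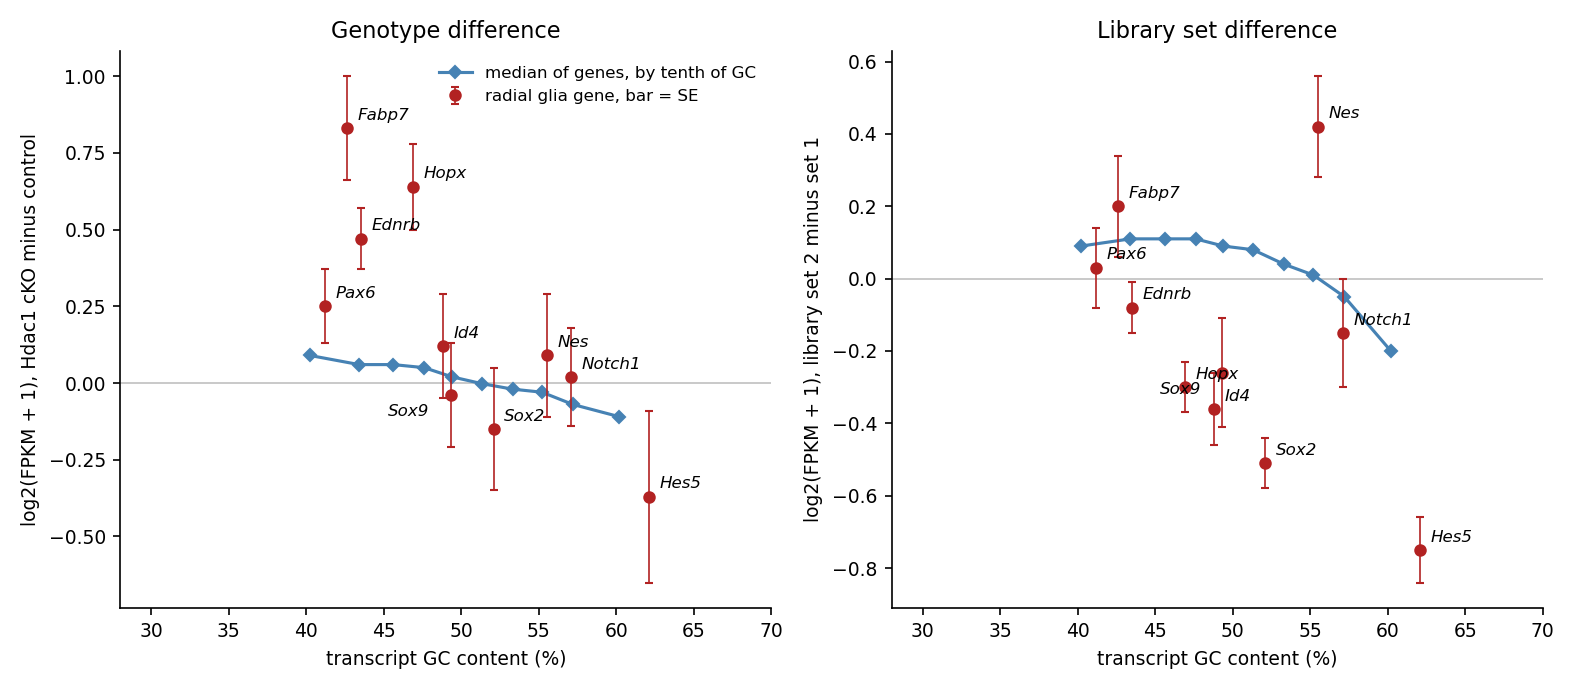
GC content of the longest coding transcript (horizontal axes, in percent) against the genotype difference (left) and the library set difference (right) in log2(FPKM + 1), with circles and SE bars for the 10 genes and diamonds for the median of each of 10 bins of 1176 genes. The medians decline to -0.11 on the left and to -0.20 on the right in the GC-richest bin. *Hopx*, *Fabp7* and *Ednrb* lie well above the line on the left. On the right *Sox2*, *Hes5*, *Id4*, *Hopx* and *Sox9* lie well below it and *Nes* well above it.

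The summed FPKM of astrocyte markers was also higher in each cKO library than in both controls, but as a share of each library's total FPKM the groups overlapped. The 15 astrocyte markers of the list summed to 3285 and 3221 FPKM in control tissue against 3470, 3500 and 3486 FPKM in cKO tissue. Their share of total FPKM was 0.564% and 0.57% in control tissue against 0.545%, 0.597% and 0.599% in cKO tissue. The median log2 difference was 0.16, and 9 of 15 were higher without overlap, where 11.0% of all tested genes were. The water channel gene *Aqp4* was the 1 marker at an unadjusted p under 0.05, with 54.4 FPKM in both controls against 89.4, 98.4 and 94.6 FPKM in cKO tissue. With the library set in the model 6 of the 15 were, all higher in the cKO libraries, namely *Aqp4*, *Slc1a3*, *Mlc1*, *Slc1a2*, *Acsbg1* and *Gja1*, against 5.32% of all tested genes in that direction, and *Aqp4* alone was at an adjusted p under 0.05 (0.0187 in limma, against 0.175 without the set). Taken relative to the mean log2 level of these 15 markers in each library, *Hopx* was higher by 0.51, *Fabp7* by 0.70 and *Ednrb* by 0.35, without overlap. *Pax6* was higher by 0.13 with overlap. On this relative scale *Sox2* had a difference of -0.28, *Hes5* of -0.50, *Sox9* of -0.17, *Notch1* of -0.11, *Nes* of -0.04 and *Id4* of -0.0046, all with overlap. The log2 differences of the markers themselves ran from -0.16 for *Atp1b2* to 0.78 for *Aqp4*, so their mean does not stand for every astrocyte transcript. Whether the astrocyte signal had a part in the level of these genes was not tested.

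The rest of the Notch pathway showed no gene at an unadjusted p under 0.05. Of 5 Notch ligands 4 were tested, with a median log2 difference of -0.21, and *Dll3*, an atypical ligand that acts within the cell, was the lowest at -0.40 with 1.43 and 1.41 FPKM in control tissue against 0.898, 0.454 and 1.26 FPKM in cKO tissue. *Jag1* was the highest ligand at 0.06. Of 4 receptors 2 were tested, and *Notch2* had a log2 difference of 0.09. The 17 genes of Notch processing and its nuclear complex had a median of -0.05, with the coactivator *Maml2* highest at 0.23. Of 8 Hes and Hey genes 5 were tested, with a median of -0.03, from *Hes5* at -0.37 to *Hey1* at 0.11. The groups of *Hey1* overlapped.

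The list medians of the BMP and ID genes were close to the median of all genes. Of 16 BMP pathway genes 13 were tested, with a median log2 difference of 0.04, and 1 was at an unadjusted p under 0.05. This was *Bmpr1a*, a type I BMP receptor, at 24.8 and 26.1 FPKM in control tissue against 29.0, 34.3 and 30.2 FPKM in cKO tissue. The ligand *Bmp7* (0.33) and the receptor-activated *Smad9* (-0.17) were the extremes. The 7 ID and E protein genes had a median of -0.02, with *Id3* highest at 0.26 and the E protein gene *Tcf3* lowest at -0.18. With the library set in the model *Id3* had a log2 difference of 0.35 (unadjusted p = 0.00178 and adjusted p = 0.405 in limma). *Id3* had a set difference of -0.53 (adjusted p = 0.0211 in limma). For that difference 3.09% of all tested genes passed an adjusted p under 0.05. Among them were genes of other lists, such as *Olig1* (-0.64) in the same direction and *Pdgfra* (0.47) in the other.

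The families of the other members were mixed. In the endothelin pathway, with 5 of 7 genes tested, *Ednrb* was the 1 gene at an unadjusted p under 0.05, and the converting enzyme gene *Ece1* was lowest at -0.23. All 6 tested SoxB and SoxE genes had cKO means below the control means, with a median of -0.12 and 0 at an unadjusted p under 0.05, from *Sox21* at -0.32 to *Sox10* at -0.02. With the library set in the model *Sox10* was at 0.03, and 4 of the 6 were lower. All 6 were also higher in library set 1, and *Sox2* and *Sox1* passed an adjusted p under 0.05 for that difference, the latter at -0.63 (adjusted p = 0.0481) and named after its values were seen. The 3 tested fatty acid binding protein genes were all higher in the cKO mean, with *Fabp3*, the heart form, at 0.16 and with overlap, and with the library set in the model *Fabp5* had a log2 difference of 0.26 (unadjusted p = 0.00315 and adjusted p = 0.422 in limma). Among the intermediate filaments of glia, *Gfap* stood at 309 and 263 FPKM in control tissue against 374, 364 and 415 FPKM in cKO tissue, with a log2 difference of 0.43 (SE 0.11), whereas *Vim* had one of 0.02, negative after rescaling to a common total.

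**Figure D5:**
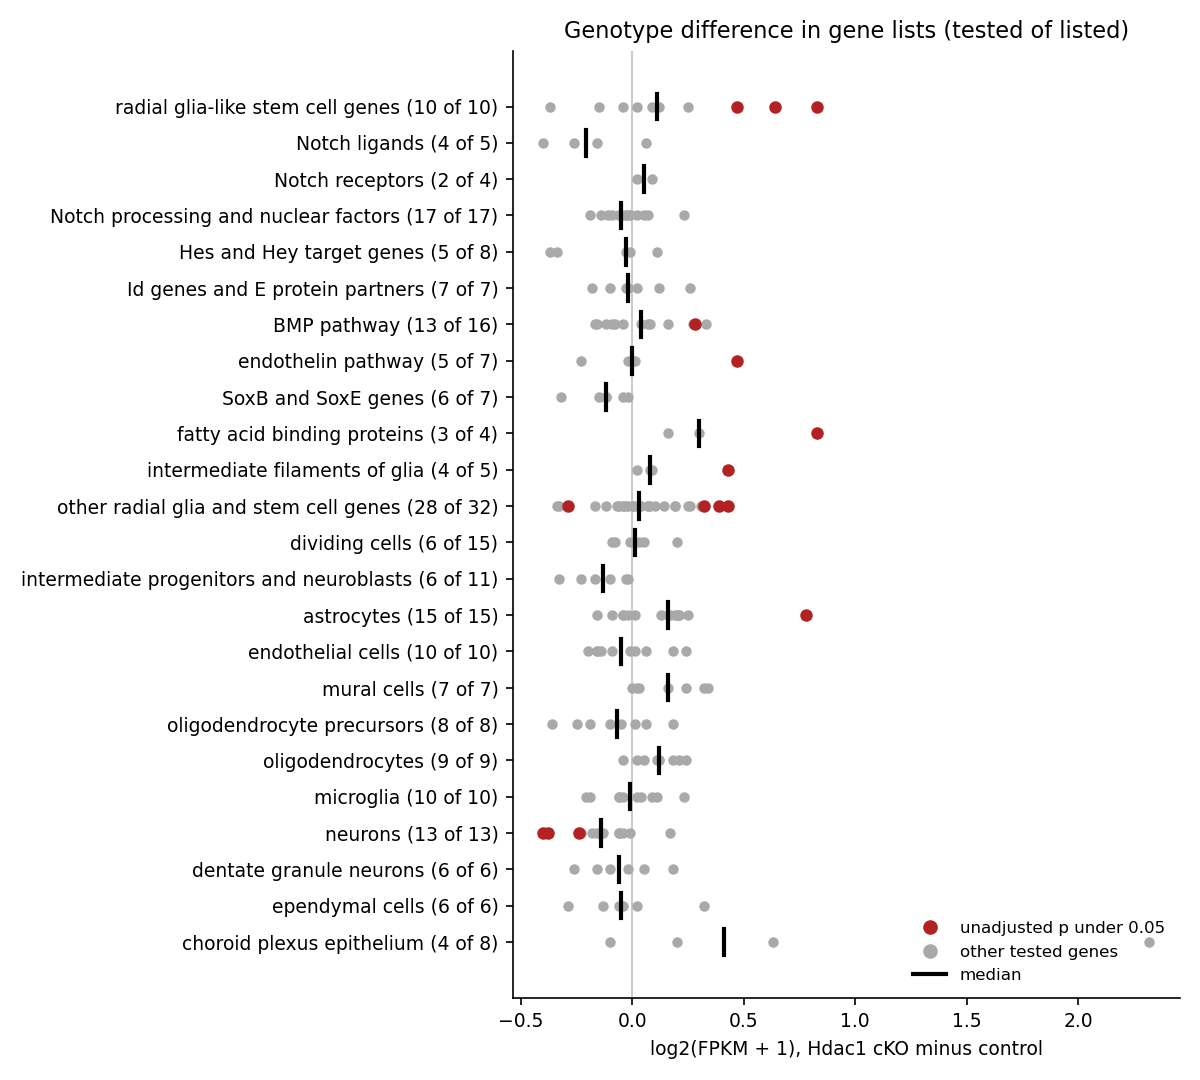
Genotype difference in log2(FPKM + 1), *Hdac1* cKO minus control (horizontal axis), of the tested genes of each list, with black bars for list medians and red points for genes at an unadjusted p under 0.05; the numbers after each name are the genes tested and listed. *Fabp7*, *Hopx* and *Ednrb* stand at 0.83, 0.64 and 0.47 in the top line, and the medians of the Notch, BMP and dividing cell lists lie between -0.21 and 0.05.

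A wider list of 32 radial glia and stem cell genes, none of them among the 10, had 28 tested genes with a median log2 difference of 0.03. At an unadjusted p under 0.05, 3 were higher and 1 lower in the cKO libraries, where 2.37% and 1.99% of all tested genes were. Besides *Gfap* these were *Tnc*, the matrix protein tenascin C (0.39), *Ptprz1*, a receptor tyrosine phosphatase of radial glia (0.32), and, lower, *Mfge8*, which encodes a secreted bridging protein for phagocytosis (-0.29). *Hes1*, another Notch effector, was the lowest at -0.34 with overlap. None of these had an adjusted p under 0.05 in limma.

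Most transcripts of dividing progenitors, to which radial glia give rise, were under the level for testing. Of 15 dividing cell genes 6 reached a mean of 1 FPKM, with a median log2 difference of 0.01 and 0 at an unadjusted p under 0.05, from *Mcm5* at -0.09 to *Mcm6* at 0.20. The proliferation markers *Mki67* and *Top2a* were among the 9 under that level. Of 11 intermediate progenitor and neuroblast genes 6 were tested, all with cKO means below the control means, with a median of -0.13 and 0 at an unadjusted p under 0.05. *Sox4* was the highest at -0.02, which became 0.04 with the library set in the model.

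Markers of the other cell types of the dissected tissue were given the same comparison. The median log2 difference was -0.14 for 13 neuronal genes, -0.06 for 6 dentate granule neuron genes, 0.12 for 9 oligodendrocyte genes, -0.07 for 8 oligodendrocyte precursor genes, -0.01 for 10 microglial genes, -0.05 for 10 endothelial genes, 0.16 for 7 mural genes and -0.05 for 6 ependymal genes. Of the neuronal genes 12 of 13 had a cKO mean below that of the controls on the log2 scale, and *Syn1*, *Nefm* and *Stmn2* were lower at an unadjusted p under 0.05, where 1.99% of all tested genes were. The 8 choroid plexus genes, a tissue that adjoins the hippocampus, summed to 215 and 46.5 FPKM in control tissue against 114, 680 and 73.7 FPKM in cKO tissue. The sum was mostly *Ttr* in control replicate 1 and cKO replicates 1 and 2, and mostly *Enpp2* in control replicate 2 and cKO replicate 3. Without cKO replicate 2, the library with the highest *Ttr*, the log2 differences of *Hopx*, *Fabp7* and *Ednrb* were 0.73, 0.81 and 0.48.

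Over the 5 libraries, the tested gene whose deviations from its own mean log2 level were most like those of *Hopx* was *Tnfaip8l2*, with a root mean square difference of 0.07 log2 units. It stood at 2.24 and 1.91 FPKM in control tissue against 4.29, 3.21 and 3.09 FPKM in cKO tissue. *Hist1h4m* (0.11), *Tst* (0.12), *Ptgds* (0.12) and *Hist1h2bf* (0.13) followed. *Ptgds*, which encodes prostaglandin D2 synthase, stood at 279 and 287 FPKM in control tissue against 442, 366 and 392 FPKM in cKO tissue. Among the other members, *Ednrb* came 13th in this order with 0.15, while *Fabp7*, with its different course within the cKO group, came 2513th with 0.33 and *Hes5* was the most distant at 0.55.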

How the data were processed

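RNA-seq of hippocampus was available for 2 control and 3 *Hdac1* cKO libraries from 3-month-old mice. Libraries were made from total RNA with a TruSeq kit. The authors deposited FPKM values from Cufflinks 2.0.0, computed on reads aligned to mm9 with TopHat and Bowtie. The methods give 1 mean read yield over samples, but use of strand and read totals per library were not given in the sources used here, so depth was estimated from steps in low values and no counting interval is given. The study counts its groups in mice. The labels do not say whether libraries came from separate animals, and p-values measure the spread between these libraries.

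Sample titles gave the groups and replicate numbers. The 12740 of 23361 genes that averaged 1 FPKM or more were tested with limma 3.58.1 in R 4.3.3 (lmFit, eBayes with trend) on log2(FPKM + 1), two-sided, with genotype as the only term. Adjusted p-values are Benjamini-Hochberg values over all tested genes. Fold changes on this scale understate the change of genes with low FPKM. The fit was tested on simulated data. Libraries were placed in 1 set where over 10% of genes with a mean under 0.3 FPKM had ratios within 1 window of 0.05 log2 units. The members, the gene lists and the sets were chosen with earlier results of these data known. Named genes were all members, *Hdac1*, from each list the genes at an unadjusted p under 0.05 together with those of the highest and the lowest log2 difference, and the 5 genes most like *Hopx*, without microRNA, snoRNA and predicted gene symbols. Some genes that this rule names are not reported here. Coordinates and gene identifiers are from GENCODE vM1 (NCBIM37, the same assembly as mm9), in which 21207 symbols matched. Upstream sequences are from a table of RefSeq promoters, and that of *Sox9* was not analysed here. Copies were searched with BLAST 2.17.0. Alternatives were a pseudocount of 0.1, no filter or a minimum of 5 FPKM, 3 rescalings, no variance trend, the replicate number or the library set as a block, and leaving out each library. Centring on GC content in 20 bins, and the set difference with all its alternatives, were added after seeing the data.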

Additional observations from a re-analysis of the deposited data

How the results depend on the processing

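*Hopx* (0.51 to 0.74), *Fabp7* (0.63 to 0.99), *Ednrb* (0.40 to 0.55) and *Pax6* (0.17 to 0.29) kept a positive log2 genotype difference under all 17 alternatives. A fit without 1 control library takes its spread from the cKO libraries alone. The first 3 genes kept an unadjusted p under 0.05 in limma in every alternative with both control libraries. Their adjusted p in limma ranged from 0.0455 to 1.0 for *Hopx*, from 0.102 to 1.0 for *Fabp7* and from 0.116 to 1.0 for *Ednrb*. The direction of the others was not stable. *Notch1* was -0.04 after rescaling to a common total and -0.07 with the replicate block, and leaving out each library gave -0.09 to 0.14. *Sox9* was 0.0024 with the set block and -0.17 to 0.10 without single libraries, with positive values without control replicate 1 (0.09) or cKO replicate 2 (0.10). Leaving out single libraries gave -0.12 to 0.29 for *Nes*, -0.42 to 0.12 for *Sox2*, -0.75 to 0.01 for *Hes5* and -0.05 to 0.26 for *Id4*, with the sign changed without control replicate 1 for the first 3 and without cKO replicate 1 for *Id4*.

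Past a fold of 1.5 and an unadjusted p under 0.05 there were 84 genes. With a pseudocount of 0.1 there were 142, with a minimum of 5 FPKM, which left *Nes*, *Sox9* and *Notch1* out, 43, with the replicate block 133, and without single libraries 92 to 231. Members at an unadjusted p under 0.05 numbered 3, where 4.36% of all tested genes were. They numbered 3 to 4 without single cKO libraries, where 387 to 970 of the 12740 tested genes were. With the set block they numbered 4, with *Hes5* lower (-0.25, unadjusted p = 0.0327, adjusted p = 0.498 in limma), where 9.34% of all genes were, and 5 with the replicate block, where 11.2% were. At an adjusted p under 0.05 there was 1 gene, against 24 with no filter, 14 and 5 when the replicate number or the set was a block, 0 with GC centring (615 at an unadjusted p under 0.05) and 1 to 5 without single libraries. Apart from the astrocyte list, which went from 1 to 6 genes at an unadjusted p under 0.05, the set block changed this count by at most 2 genes in any list. In the replicate block cKO replicate 3 has no partner. Same-numbered libraries deviated from their group means together across genes (r = 0.402 and 0.269), but with 2 pairs the number is not shown to pair the samples. Rescaling to a common total moved the median genotype difference of all genes to -0.047.

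The library set difference was past an adjusted p of 0.05 for 394 genes. The count was 226 with GC centring, 47 with no filter, 676 with a minimum of 5 FPKM, 1099 after rescaling to a common total, 0 without the variance trend (2602 at an unadjusted p under 0.05) and 87 to 1454 without single libraries. A fit without 1 library of set 1 assumes that the lone library varies like the rest. It ranged from -0.58 to -0.43 for *Sox2* and from -0.80 to -0.47 for *Hes5*, with an adjusted p of 0.129 and 0.204 with no filter and 0.126 and 0.11 without the trend. Without single libraries it ran from -0.17 to 0.48 for *Fabp7*, negative without cKO replicate 1, and from -0.0029 to 0.08 for *Pax6*. The sign also changed for *Ednrb* after rescaling to a common total (0.0028), and for *Pax6* with GC centring (-0.07), size factors (-0.01), quantile normalization (-0.01) or without cKO replicate 2. The cause of these shifts was not tested.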
